A study of Mus musculus with 6 samples.

Results

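Glycolysis and gluconeogenesis were followed through 40 genes that encode their enzymes, the kinases that set their direction, the pyruvate dehydrogenase complex and the lactate transporters. The genes were chosen by name and matched through their Ensembl gene IDs. All 40 were found among the 18437 genes listed in the tables. Ribo-seq, the sequencing of the mRNA fragments that translating ribosomes protect from RNase, had been performed on heart, lung, kidney, brain, small intestine and colon of wild-type C57BL/6J mice at 4 weeks of age without treatment, and every tissue gave 1 library. Levels are in RPKM, the reads on a coding sequence (CDS) per kilobase of CDS, scaled to the reads on all CDSs. The RNA-seq that the paper describes was of its macrophage cell line and was not analysed here. No RNA-seq of these tissues was used, so more mRNA and more ribosomes per mRNA cannot be told apart. In bulk tissue, fewer cells of a type and less ribosome-protected RNA per cell cannot be told apart either.

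Glycolysis splits glucose into pyruvate, which is reduced to lactate or enters the mitochondria through pyruvate dehydrogenase. Gluconeogenesis runs the shared steps backwards and bypasses the irreversible ones with enzymes of its own, mainly in liver and kidney. At most steps mammals use several isoenzymes, encoded by separate genes that carry the same reaction with other kinetics, and their relative amounts are known marks of muscle, brain, liver and proliferating cells.

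The libraries held between 4504853 and 10635031 reads on CDSs. Between 0.366% (labelled lung) and 1.86% (labelled heart) of these fell on the 40 genes. There were no replicates, so no test between tissues was possible, and every interval given is a 95% interval of read counting alone. Tissue markers, 6 per tissue, disagreed with 4 of the 6 labels. The 6 heart markers peaked in the heart-labelled library and the 6 lung markers in the lung-labelled library. The 6 brain markers were highest in the small-intestine-labelled library, the 6 small intestine markers in the brain-labelled library, the 6 kidney markers in the colon-labelled library, and 5 of the 6 colon markers in the kidney-labelled library, the remaining one, Krt20, in the brain-labelled library. The colon markers summed to 14204 RPKM in the brain-labelled and 17141 in the kidney-labelled library. Libraries are named below by their labels, and lists of 6 values follow the alphabetical order of the labels (brain, colon, heart, kidney, lung, small intestine). Kri1 alone took between 0.400% and 22.1% of the reads of a library, the most in the kidney-labelled library, which lowers all other RPKM values there but leaves ratios within the library as they are.

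The authors left out reads that map to several mRNAs, so part of a CDS can be silent when another mRNA has the same sequence. In 36 of the 40 genes at most 0.580% of the windows of 29 nt, the length of a typical footprint, also occurred in another mRNA, and 32 genes had no such window. The exceptions were Eno1 with 87.6% of its windows, Gapdh with 84.3%, Pfkfb2 with 68.1% and Aldoa with 25.0%. Eno1 shares them with Eno1b, a retrotransposed copy that has the same base at 99.39% of 1302 CDS positions. For Pfkfb2 the other mRNA is Gm29427, whose gene overlaps it on chromosome 1. Neither Eno1b nor Gm29427 is listed in the tables, and whether the reference of the authors held them is not known, so the values of Eno1 per unique window hold only if it did. Gapdh (chr6:125135289-125143518 in GRCm39, minus strand) shares its windows with Gapdhrt and with Gapdhrt2 (chr8:76131968-76133217, minus strand), which had 2 and 0 reads over all libraries. The copies of Aldoa, Aldoart1 and Aldoart2, had 14 and 23. The CDS of Gapdh starts 78 bases before that of Gapdhrt2, and from there 7 of 999 bases differ. The following windows show the contrast, with bases counted from the start of each CDS. In the first pair, Gapdh bases 142 to 170 and Gapdhrt2 bases 64 to 92 are identical, so a read from there is discarded. In the second pair, Gapdh bases 208 to 236 and Gapdhrt2 bases 130 to 158 differ at the 2 bases in capitals, so a read that covers them can be placed.
Gapdh, shared window: tgcagtggcaaagtggagattgttgccat
Gapdhrt2, shared window: tgcagtggcaaagtggagattgttgccat
Gapdh, unique window: atgttccagtatgactccacTcaCggcaa
Gapdhrt2, unique window: atgttccagtatgactccacCcaTggcaa

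Gapdh, the enzyme that oxidises glyceraldehyde phosphate and a common reference gene, had far lower RPKM values than its neighbours in the pathway. In the order of labels it had 25.2, 9.48, 53.9, 12.5, 0.240 and 10.2 RPKM, and the lung-labelled library held only 2 reads of it. Tpi1 and Pgk1, the enzymes before and after it, had 148 to 588 and 171 to 1365 RPKM in the same libraries. Of the windows of Gapdh, 165 were unique, 60 of which start in the 78 bases that its copies lack. Counted per kilobase of unique windows, Gapdh came to 165, 61.9, 352, 81.5, 1.57 and 66.6 in the same order, on the scale of RPKM. This was below Tpi1 and Pgk1 counted in the same way in each library. The count takes the reads as spread evenly over the unique windows, and whether the 78 bases carry reads was not tested. With fewer reads there, Gapdh would come out higher. In the heart-labelled library, where Pgk1 had 548, its place below Pgk1 may depend on this. Eno1, counted per unique window, rose from 266 to 2192 in the brain-labelled library and from 4.27 to 35.2 in the lung-labelled library. The correction multiplies all libraries alike, so it moves the level of a gene against other genes and not the order of the libraries. It changed the highest isoenzyme in 0 of 42 pairs of step and library. Among the isoenzymes compared, it raises mainly Eno1 and Aldoa. These already led in RPKM except at enolase in the heart-labelled library, so only that pair was open to a change.

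**Figure D1:**
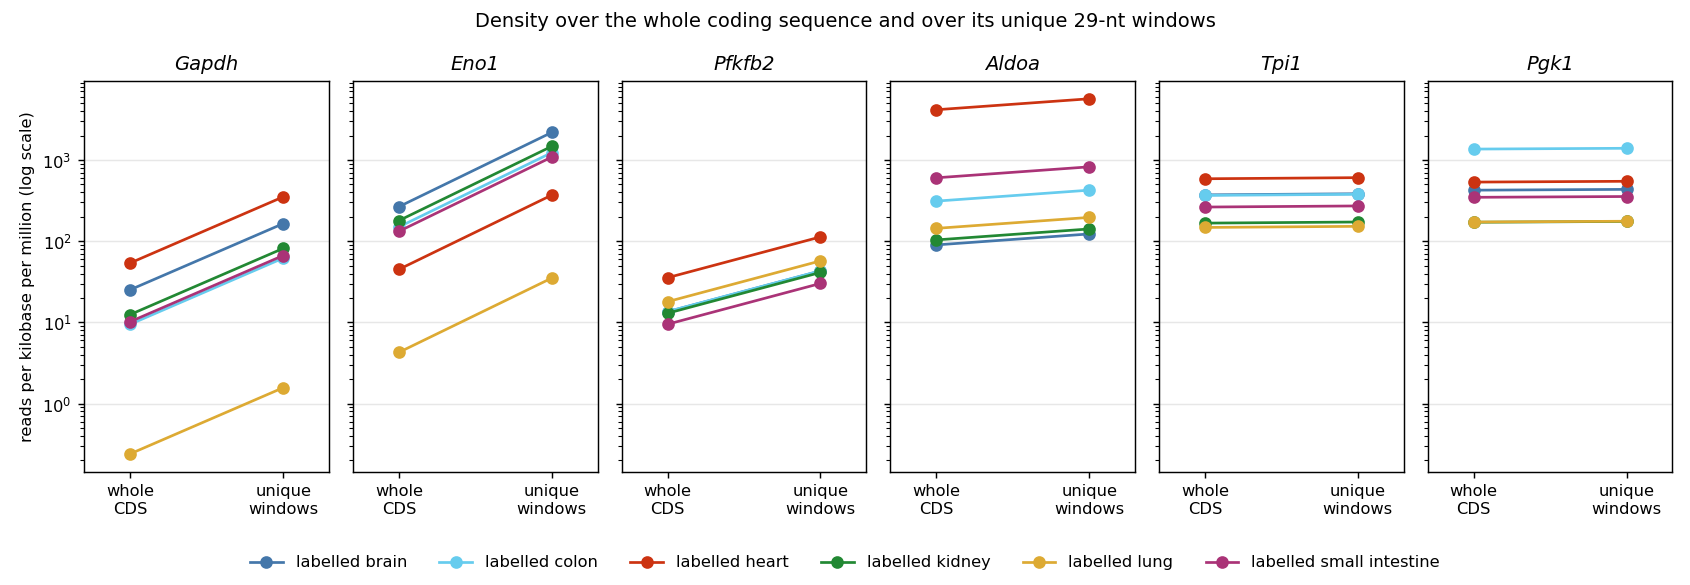
Ribosome density on the scale of RPKM (vertical axis, log scale) counted over the whole CDS (left point) and over the 29-nt windows found in no other mRNA (right point), for 6 genes and 6 libraries. Gapdh and Eno1 rise steeply, Pfkfb2 and Aldoa less, and Tpi1 and Pgk1 hardly move. Within the panels of Gapdh and Eno1 the lung-labelled library stays lowest, at 1.57 and 35.2.

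The 40 genes differed widely between the libraries. In 37 genes reads were found in every library. Pdk1, Pfkfb1 and Hk3 lacked reads in at least 1. The highest RPKM of a gene lay in the heart-labelled library for 19 genes (47.5%), against 14.1% of the 17134 mRNAs with reads and a single highest library. It lay in the brain-labelled library for 9 (22.5%, all mRNAs 14.1%) and in the colon-labelled library for 6 (15.0%, all mRNAs 14.4%). The small-intestine-labelled library was highest for 3 (7.50%, all mRNAs 24.6%), the kidney-labelled library for 2 (5.0%, all mRNAs 10.1%) and the lung-labelled library for 1 (2.5%, all mRNAs 22.6%). Of the 38 genes with a mean of at least 1 RPKM over the libraries, 25 (65.8%) were at least 8-fold higher in the highest than in the lowest library on the log2(RPKM + 1) scale, against 54.9% of the 13521 mRNAs with such a mean. The median range was 3.62 log2 units for the 38 genes and 3.19 for all mRNAs. Hk3 and Pfkfb1, at means of 0.516 and 0.116 RPKM, were not part of these counts. With only the libraries whose labels the markers bear out, heart and lung, 11 of 33 genes were at least 8-fold apart, against 14.8% of 11647 mRNAs.

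**Figure D2:**
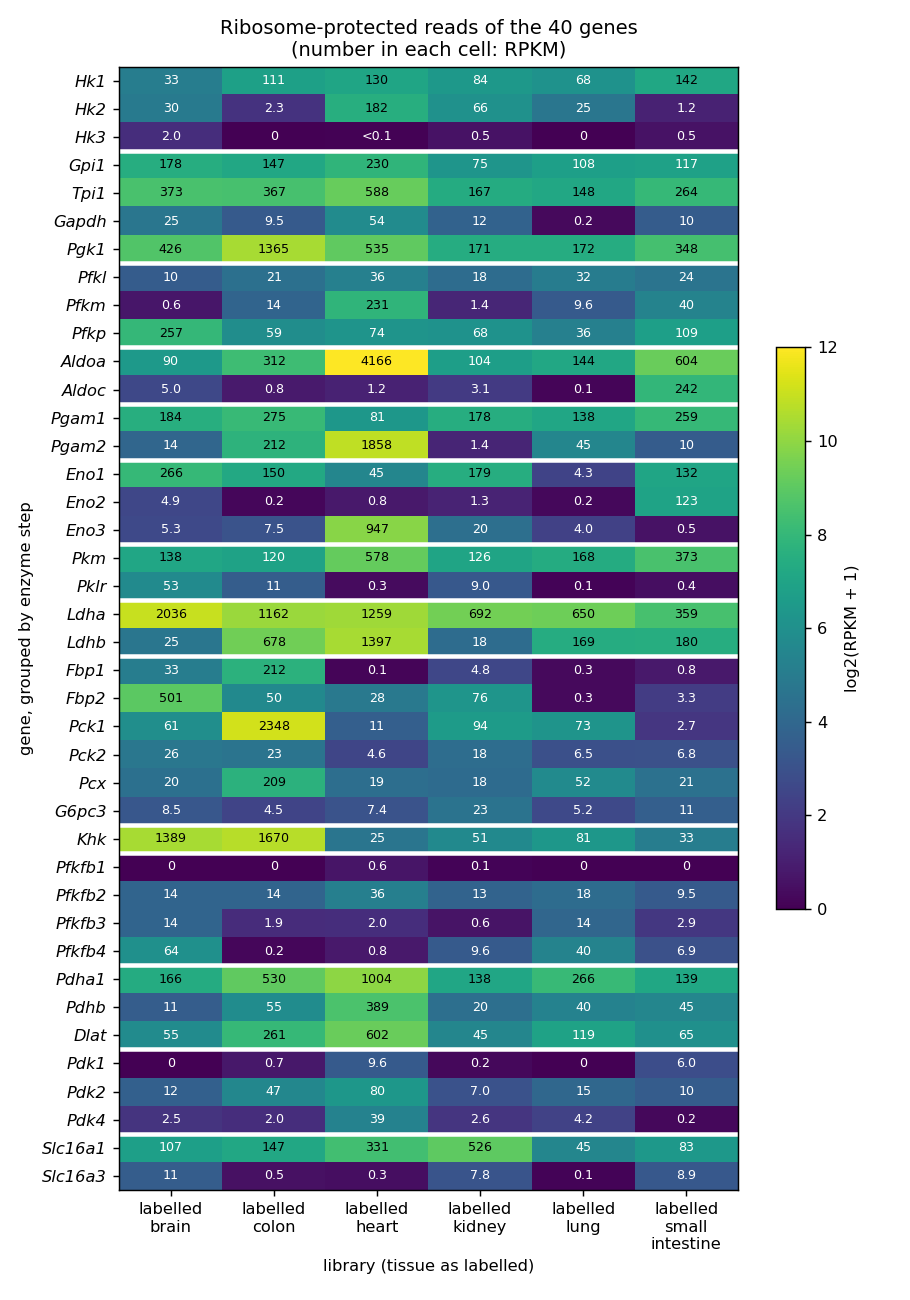
RPKM of the 40 genes (rows, grouped by step) in the 6 libraries (columns, tissue as labelled), with colour for log2(RPKM + 1) and the RPKM in each cell. Aldoa, Pgam2 and Eno3 stand out in the heart-labelled library at 4166, 1858 and 947 RPKM, Pck1 and Khk in the colon-labelled library at 2348 and 1670 RPKM, and Ldha in the brain-labelled library at 2036 RPKM.

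At 7 steps with several isoenzymes, the isoenzyme with the highest RPKM was read off in each of the 6 libraries. In 32 of the 42 pairs it was at least 2-fold above the next isoenzyme of the list. In 8 of the other 10 the counting interval of the ratio lay above 1, and in 2 pairs, both of enolase, it included 1. Among the isoenzymes of the list, Aldoa and Pkm led in all 6 libraries. Hk1, Pfkp, Pgam1, Eno1 and Ldha led in 5 each, and at these steps the heart-labelled library had another leader, namely Hk2, Pfkm, Pgam2, Eno3 and Ldhb. In the heart-labelled and lung-labelled libraries, taken alone, 5 of the 7 steps had different leading isoenzymes. Of these, only phosphoglycerate mutase had leaders at least 2-fold ahead in both libraries. In the heart-labelled library the lead was 1.40-fold for hexokinase and 1.11-fold for lactate dehydrogenase. In the lung-labelled library it was 1.14-fold for phosphofructokinase and 1.075-fold for enolase, where the interval included 1.

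**Figure D3:**
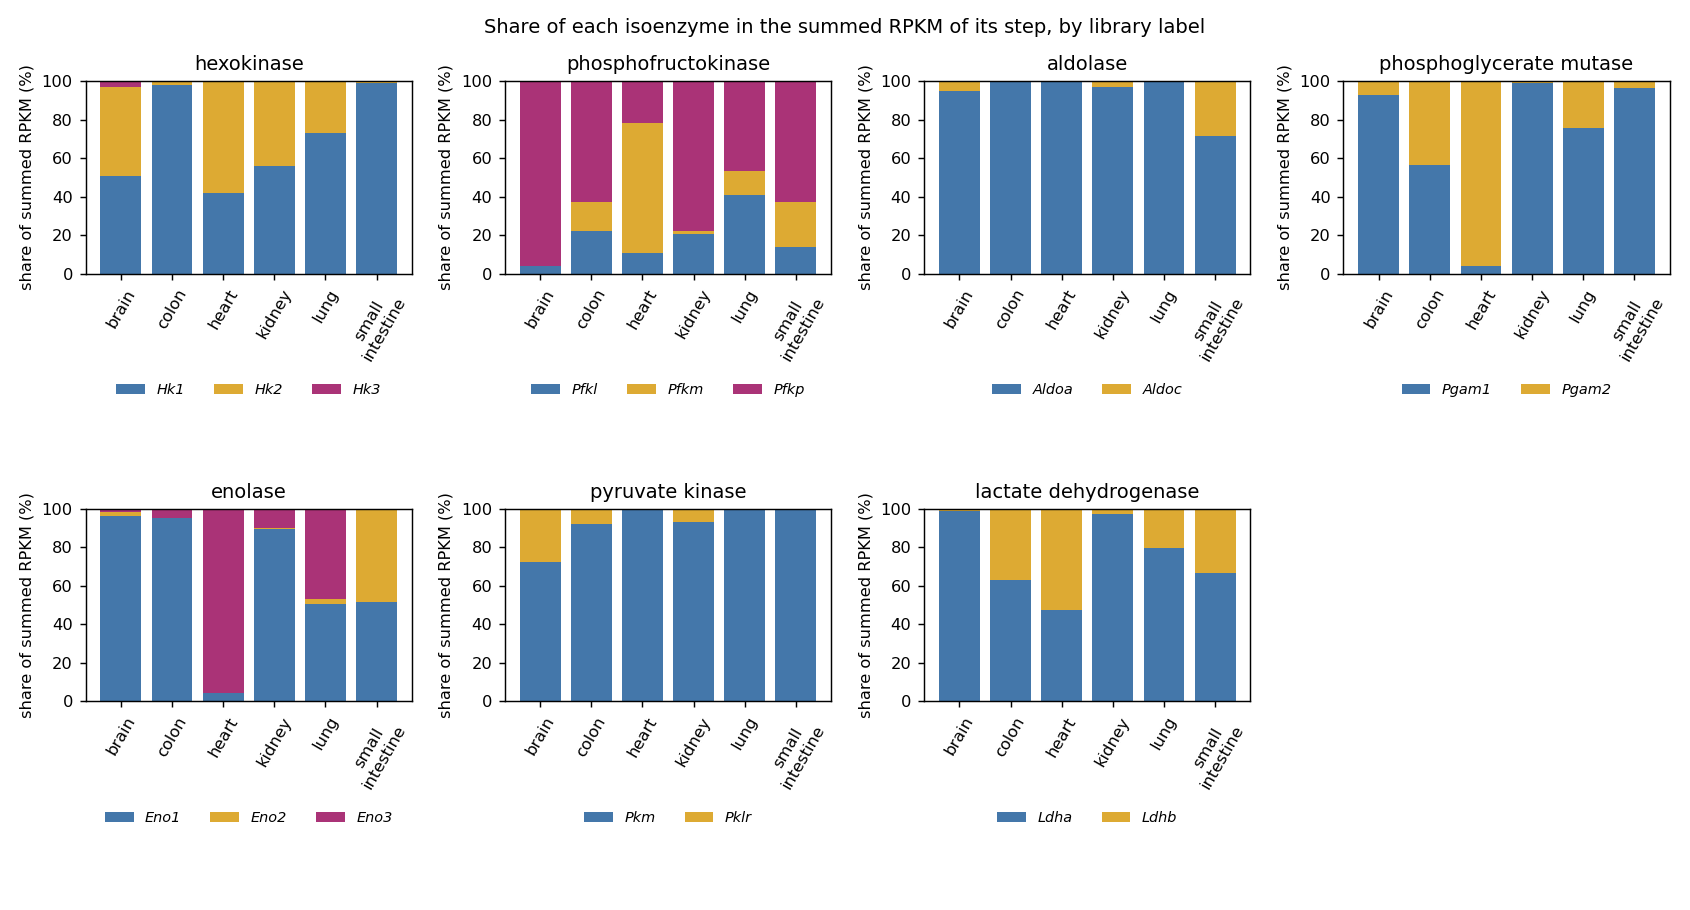
Share of each isoenzyme in the summed RPKM of its step (vertical axis, %), 1 panel per step and 1 bar per library by label. The heart-labelled library departs most visibly, with Pgam2 at 95.8%, Eno3 at 95.4% and Pfkm at 67.8% of their steps, and the small-intestine-labelled library holds Aldoc at 28.6% and Eno2 at 48.2%, all without correction for shared windows.

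Hexokinase traps glucose in the cell as its phosphate. Hk1, the widely expressed form bound to mitochondria, had 33.2, 111, 130.1, 84.5, 68.1 and 142 RPKM in the order of labels, a narrow range with the brain-labelled library lowest. Hk2, the form typical of muscle and fat, had 30.2, 2.34, 182, 65.5, 25.2 and 1.19 RPKM. The heart-labelled library was thus 153-fold (104 to 237) above the small-intestine-labelled library for Hk2, while Hk1 differed between the same libraries by 1.09-fold (1.04 to 1.15) the other way. Hk2 led only in the heart-labelled library, by 1.40-fold (1.34 to 1.47). In the small-intestine-labelled and colon-labelled libraries Hk1 made up 98.8% and 97.9% of the step, whereas in those labelled brain and kidney it led Hk2 by only 1.10-fold (1.00 to 1.20) and 1.29-fold (1.20 to 1.38). Hk3, a hexokinase of leukocytes, reached 2.01 RPKM (59 reads) in the brain-labelled library, had at most 11 reads in those labelled heart, kidney and small intestine, and had 0 in those labelled colon and lung, where 3 reads would give 0.241 and 0.140 RPKM.

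Hkdc1, a further hexokinase domain protein outside the 40 genes, lies beside Hk1 on chromosome 10 (Hk1 at chr10:62104621-62215687 and Hkdc1 at chr10:62218916-62258270, both on the minus strand, with 3228 bases between them). Its level was 141 RPKM in the brain-labelled library, where Hk1 was lowest, and 0.243, 0.445, 14.5, 3.35 and 4.53 RPKM in the others. Counted with the list, Hkdc1 was 68.3% of the hexokinase step in the brain-labelled library and led it.

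Phosphofructokinase catalyses the committed step of glycolysis. Pfkp, the platelet type, led outside the heart-labelled library, with 257, 58.8, 73.5, 67.5, 36.1 and 109 RPKM. Pfkm, the muscle type, had 0.643 (16 reads), 13.7, 231, 1.41, 9.56 and 40.5 RPKM. It led in the heart-labelled library, 3.15-fold (2.96 to 3.34) above Pfkp, and was the next form after Pfkp in the small-intestine-labelled library. Pfkl, the liver type, stayed between 10.1 and 36.3 RPKM, and its 31.7 RPKM in the lung-labelled library nearly matched Pfkp there (Pfkp over Pfkl 1.14-fold, 1.02 to 1.28).

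Phosphofructokinase is activated by a fructose bisphosphate other than the one it makes. The level of this activator is set by the PFKFB enzymes, which carry a kinase and a phosphatase in the same chain. Pfkfb4 had 63.8 RPKM in the brain-labelled library and 40.4 in the lung-labelled library, against 9.56 in the kidney-labelled library, 6.88 in the small-intestine-labelled library, 0.782 in the heart-labelled library and 0.158 (1 read) in the colon-labelled library. Pfkfb3, a form with high kinase activity, was highest in the same libraries, at 13.7 RPKM in the brain-labelled library and 14.4 in the lung-labelled library, with counting intervals that overlapped, and lay at 0.554 to 2.91 RPKM elsewhere. Pfkfb2, a form known from heart, was highest in the heart-labelled library at 35.5 RPKM and 9.49 to 18.0 elsewhere, on a CDS of which 68.1% of the windows also occur in another mRNA. Pfkfb1, known from liver and muscle, had 7 reads in the heart-labelled library, 1 in the kidney-labelled library and 0 in the others. The leukocyte markers moved with Pfkfb3 and Pfkfb4 only in part. In sum they were highest in the lung-labelled library, at 848 RPKM with 5 of 6 at their highest there, and 63.0 RPKM in the brain-labelled library, within the 25.4 to 79.9 RPKM of the other libraries. Lyz2 weighs most in this sum, with 727 RPKM in the lung-labelled and 1.27 in the brain-labelled library. Ptprc (69.6 and 31.5 RPKM) and Cd3e (14.6 and 10.6) were highest in the lung-labelled and next in the brain-labelled library. Elsewhere Ptprc had 0.286 to 11.4 RPKM and Cd3e 0. Cd68, Lyz2, Csf1r and Cd79a did not follow this order. The part of leukocytes in the result was not tested.

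Aldolase cleaves fructose bisphosphate into triose phosphates. Aldoa, the muscle form that most tissues share, had 90.1, 312, 4166, 104, 144 and 604 RPKM and was the highest of all 40 genes in any library. The heart-labelled library was 6.89-fold (6.71 to 7.09) above the small-intestine-labelled library, the next. Aldoc, the brain form, had 242 RPKM in the small-intestine-labelled library and 0.119 (1 read) to 5.01 RPKM in the other 5. That library, in which the 6 brain markers summed to 5854 RPKM against 11.8 to 53.9 RPKM elsewhere, was the only one of the 6 in which Aldoc exceeded 5.27% of the pair.

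Gpi1, Tpi1 and Pgk1 are, like Gapdh, the only genes of the list at their steps. Gpi1, which interconverts glucose and fructose phosphates, had 178, 147, 229.9, 75.2, 108 and 117 RPKM. Tpi1, which interconverts the triose phosphates, had 373, 367, 588, 167, 148 and 264 RPKM. For both genes the heart-labelled library was highest, by 3.06-fold (2.85 to 3.29) and 3.98-fold (3.72 to 4.26) over the lowest. Pgk1, which makes the first ATP of the pathway, was highest in another library, with 1365 RPKM in the colon-labelled library, 2.55-fold (2.46 to 2.64) above the heart-labelled library at 535, and 171 to 426 in the others.

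Phosphoglycerate mutase moves the phosphate before enolase acts. Pgam1, the widely expressed form, had 184, 275, 80.8, 178, 138 and 259 RPKM, and the heart-labelled library was lowest. Pgam2, the muscle form, had 14.5, 212, 1858, 1.39 (8 reads), 45.2 and 10.2 RPKM. The step thus turned over in the heart-labelled library, where Pgam2 led by 23.0-fold (21.0 to 25.2), while Pgam1 led by 128-fold (64.6 to 297) in the kidney-labelled library. In the colon-labelled library Pgam2 was 43.6% of the pair and in the lung-labelled library 24.6%. The heart markers summed to 300.3 and 913 RPKM in those libraries, against 38551 in the heart-labelled library and 12.3 to 53.1 in the other 3, and their part in the result was not tested. Bpgm, a mutase known from red blood cells and outside the list, had 139.9 RPKM in the lung-labelled library, level with Pgam1 there, and 31.9 to 58.8 elsewhere. The 6 red blood cell markers summed to 502 RPKM in the lung-labelled library and to 1.95 to 134 RPKM elsewhere, and their part was not tested. Among them, Hba-a1 and Hba-a2 share 92.7% of their windows, and Hbb-bs and Hbb-bt 93.95%, so these sums are likely too low.

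Enolase makes phosphoenolpyruvate. Eno1, the general form, had 266, 149.9, 45.0, 179, 4.27 (43 reads) and 132 RPKM. Eno2, the neuronal form, had 123 RPKM in the small-intestine-labelled library and 4.91, 0.170 (1 read), 0.751, 1.32 and 0.199 in the other 5. Eno3, the muscle form, had 947 RPKM in the heart-labelled library and 5.34, 7.50, 20.1, 3.97 and 0.502 in the others, so that the nearest library, labelled kidney, was 47.2-fold (41.0 to 54.7) lower. Eno3 led Eno1 by 21.1-fold (19.2 to 23.1) in the heart-labelled library, and by 2.61-fold (2.38 to 2.87) per unique window, at 968 against 370.5. Eno1 and Eno2 were not distinguishable by counting in the small-intestine-labelled library (1.07-fold, 0.991 to 1.16), nor were Eno1 and Eno3 in the lung-labelled library (1.07-fold, 0.683 to 1.70). Per unique window Eno1 would lead in both, at 1090 against 126 for Eno2 and at 35.2 against 4.06 for Eno3. In the lung-labelled library the 3 enolases of the list summed to only 8.45 RPKM, against 158 to 993 in the other 5, and Eno4, a form outside the list that is known from sperm, had 7.18 RPKM (103 reads), above each of them in RPKM but below the 35.2 of Eno1 per unique window. The windows of Eno4 itself were not checked. Elsewhere Eno4 had 0 to 1.13 RPKM.

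Pyruvate kinase closes glycolysis. Pkm, the gene of the muscle isoforms, had 138, 119.7, 578, 126, 168 and 373 RPKM and led everywhere. Pklr, the gene of the liver and red cell isoforms, had 52.6 RPKM in the brain-labelled library, 10.6 in the colon-labelled library and 8.96 in the kidney-labelled library, and between 1 and 5 reads in the other 3. It was 27.6% of the step in the brain-labelled library, 8.11% in the colon-labelled library and 6.64% in the kidney-labelled library. The 6 red blood cell markers summed to 1.95, 134 and 5.34 RPKM in these libraries and to 502 RPKM in the lung-labelled library, where Pklr had 1 read. These sums are likely too low because of the shared globin windows. The part of red blood cells in the levels of Pklr was not tested.

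Lactate dehydrogenase is built from Ldha subunits, which favour lactate formation, and Ldhb subunits, the form typical of heart. Ldha had 2036, 1162, 1259, 692, 649.7 and 359 RPKM and was the only gene among the 5 highest of the list in all 6 libraries. Ldhb had 25.3, 678, 1397, 17.8, 169 and 180 RPKM. The range of Ldhb, from 17.8 to 1397, was 78.5-fold (66.4 to 93.5) and that of Ldha 5.67-fold (5.46 to 5.90). The ratio of Ldhb to Ldha ran from 0.0124 (0.0110 to 0.0140) in the brain-labelled library and 0.0257 (0.0215 to 0.0304) in the kidney-labelled library over 0.260 (0.244 to 0.276) in the lung-labelled library, 0.501 (0.470 to 0.534) in the small-intestine-labelled library and 0.584 (0.559 to 0.610) in the colon-labelled library to 1.11 (1.08 to 1.14) in the heart-labelled library. The 2 lowest ratios belonged to the libraries that held the intestinal markers.

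Gluconeogenesis starts with Pcx, which carboxylates pyruvate in the mitochondria, and Pck1 or Pck2, the cytosolic and mitochondrial enzymes that then form phosphoenolpyruvate. Pcx had 20.2, 209, 19.4, 17.5, 52.1 and 21.1 RPKM, with the colon-labelled library 4.01-fold (3.76 to 4.26) above the lung-labelled library. Pck1 had 60.9, 2348, 11.3, 93.9, 72.5 and 2.73 (39 reads) RPKM, and its level in the colon-labelled library was the highest of all 40 genes there. Pck2 moved within 4.64 to 26.0 RPKM. Pck1 exceeded Pck2 in 5 libraries, from 2.34-fold (2.11 to 2.59) in the brain-labelled library to 101-fold (88.4 to 117) in the colon-labelled library, and in the small-intestine-labelled library the ratio was 0.402 (0.271 to 0.586). Adipocytes also use Pck1, and the adipocyte markers summed to 602 RPKM in the lung-labelled library and to 3.11 to 349.6 RPKM in the others, with Lep at 0 in all 6. Their part in the 72.5 RPKM of Pck1 in the lung-labelled library was not tested.

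Fructose bisphosphatase reverses the phosphofructokinase step. Fbp1, the liver and kidney form, and Fbp2, the muscle form, lie 6014 bases apart on chromosome 13 (Fbp2 at chr13:62984691-63006552 and Fbp1 at chr13:63012567-63036263, both on the minus strand). Fbp1 had 32.9, 212, 0.121 (1 read), 4.81, 0.255 (2 reads) and 0.774 (6 reads) RPKM. Fbp2 had 501, 50.2, 27.8, 76.0, 0.254 (2 reads) and 3.34 RPKM. The neighbours were thus led by different libraries. Fbp1 was 4.22-fold (3.65 to 4.90) above Fbp2 in the colon-labelled library, and Fbp2 was 15.2-fold (13.7 to 17.0) above Fbp1 in the brain-labelled library and 15.8-fold (11.3 to 22.7) above it in the kidney-labelled library. Fbp2 is known as the muscle form, and the skeletal muscle markers summed to only 32.5 and 11.2 RPKM in those libraries, with 3 and 2 of the 6 without reads. The smooth muscle markers summed to 3288 and 4590 RPKM there and to 1328 in the heart-labelled library, and their part in the result was not tested.

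The last step, the release of glucose, needs a glucose phosphatase. G6pc3, its general form, had 8.52, 4.49, 7.42, 22.9, 5.23 and 11.5 RPKM, with the kidney-labelled library highest. G6pc1, the form of gluconeogenic tissues and outside the list, had 589 RPKM in the colon-labelled library, 35.3 in the brain-labelled library and 0.121 to 1.48 RPKM in the others. G6pc3 had its lowest value in the library in which G6pc1 was highest, but on 21 reads. Its counting interval there, 2.78 to 6.86 RPKM, overlapped that of the lung-labelled library, 3.77 to 7.08. Khk, which feeds fructose into the pathway, had 1389 RPKM in the brain-labelled library and 1670 in the colon-labelled library, where it was the second highest of the 40 genes in both, against 24.6, 51.0, 81.3 and 32.5 RPKM in those labelled heart, kidney, lung and small intestine. Tkfc, which phosphorylates the glyceraldehyde made from fructose and is outside the list, had its 2 highest levels in the same libraries, with 172 and 197 RPKM against 1.04 to 7.17 elsewhere. Pck1, Pcx, Fbp1, Khk and G6pc1 were all highest in the colon-labelled library, in which the 6 kidney markers summed to 22484 RPKM against 15.8 to 583 elsewhere.

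**Figure D4:**
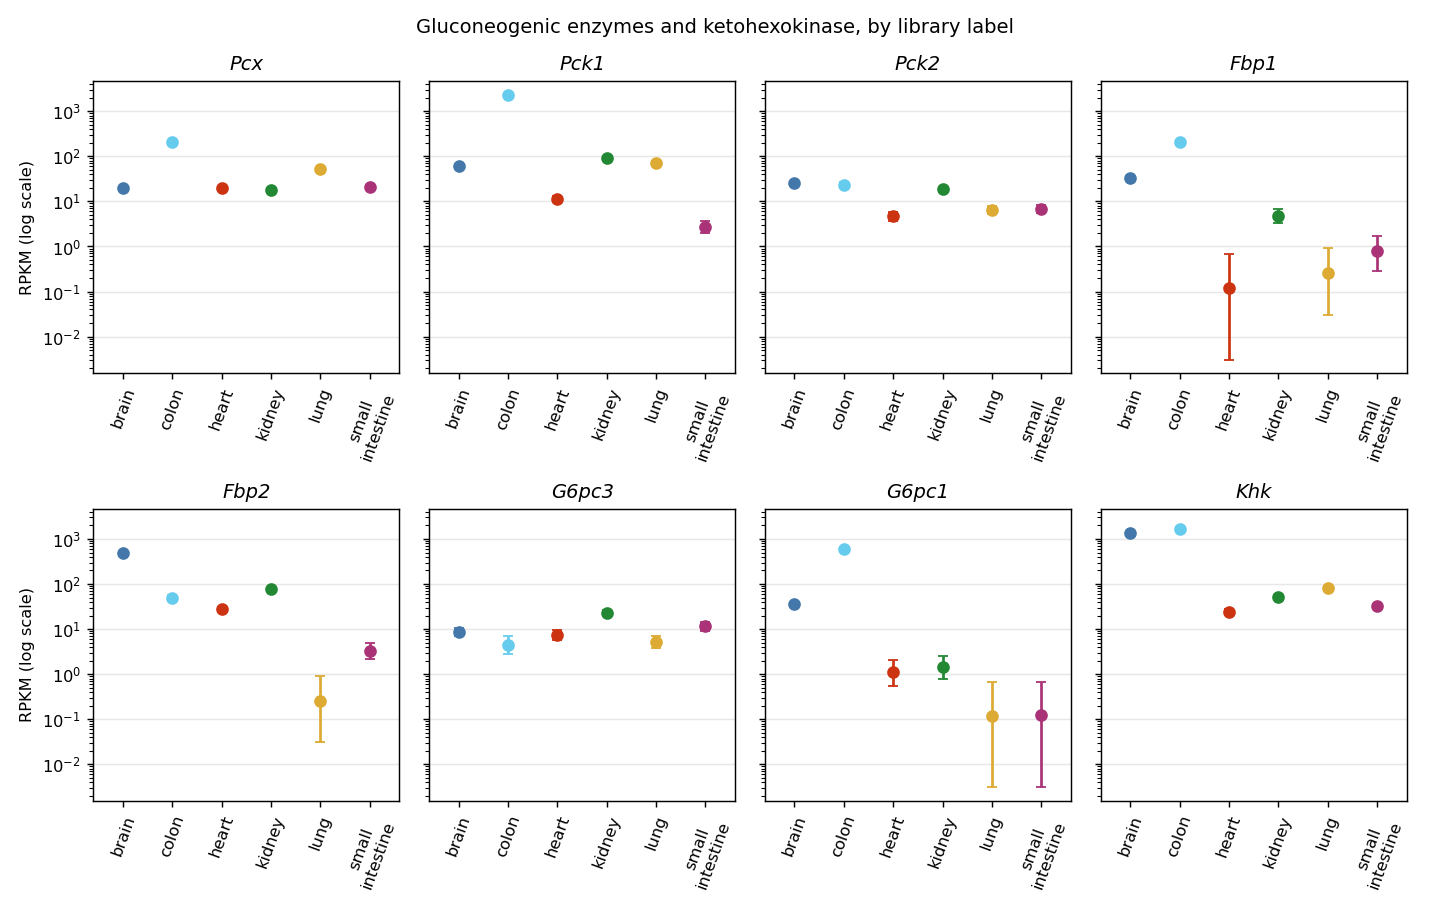
RPKM (vertical axis, log scale) of the 6 gluconeogenic genes of the list, of G6pc1 and of Khk in each library by label, with bars for the 95% Poisson interval of the reads. Pck1, Pcx, Fbp1, G6pc1 and Khk peak in the colon-labelled library, Fbp2 in the brain-labelled library at 501 RPKM, and G6pc3 in the kidney-labelled library at 22.9 RPKM.

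Pyruvate enters the citric acid cycle through the pyruvate dehydrogenase complex. Pdha1 and Pdhb encode the subunits of its first enzyme and Dlat the acetyltransferase core. Pdha1 had 166, 530.5, 1003.5, 138, 266 and 139 RPKM. Pdhb had 10.6, 55.2, 389, 20.2, 39.5 and 44.7 RPKM. Dlat had 54.6, 261, 602, 44.6, 119 and 64.5 RPKM. All 3 were highest in the heart-labelled library and next highest in the colon-labelled library. The subunits of Pdha1 and Pdhb are known to pair in equal numbers, and the ribosome density of Pdha1 exceeded that of Pdhb in every library, from 2.58-fold (2.48 to 2.69) in the heart-labelled library to 15.7-fold (13.1 to 19.0) in the brain-labelled library. Both CDSs shared 0% of their windows with other mRNAs of the annotation used here, which may differ from the reference of the authors. The cause of the difference was not tested.

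The complex is switched off by the pyruvate dehydrogenase kinases. Pdk2, the widely expressed kinase, had 11.6, 46.7, 80.1, 7.02, 15.3 and 10.3 RPKM, highest in the heart-labelled library and next in the colon-labelled library. Pdk4, a kinase induced by fasting and fatty acids, had 39.1 RPKM in the heart-labelled library, 1.98 to 4.19 in 4 others and 0.212 (2 reads) in the small-intestine-labelled library. Pdk1, a kinase induced by hypoxia, had 9.57 RPKM in the heart-labelled library and 6.03 in the small-intestine-labelled library, 4 and 2 reads in those labelled colon and kidney, and 0 in those labelled brain and lung, where the heart-labelled library was at least 44.2-fold and 32.1-fold higher, set against 3 reads in each. Pdk2 was thus the highest of the 3 kinases of the list in each library, by 1.71-fold (1.22 to 2.40) over Pdk1 in the small-intestine-labelled library and by 2.05-fold (1.82 to 2.32) over Pdk4 in the heart-labelled library. Pdk3, a further kinase of the complex outside the list, had 11.7 RPKM in the small-intestine-labelled library and 9.59 in the brain-labelled library. Its ratio to Pdk2 was 1.13 (0.855 to 1.51) and 0.825 (0.646 to 1.05) there, so counting did not separate them, and it was 0.0331 to 0.377 in the other 4.

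Lactate crosses the plasma membrane through monocarboxylate transporters. Slc16a1, the general form, had 106.9, 147, 331, 526, 45.1 and 82.9 RPKM. The kidney-labelled library was thus 1.59-fold (1.53 to 1.66) above the heart-labelled library and 11.7-fold (10.7 to 12.8) above the lung-labelled library. The colon markers summed to 17141 RPKM in the kidney-labelled library and to 14204 in the brain-labelled library, where Slc16a1 had only 106.9 RPKM. Slc16a3, the exporter of glycolytic cells, had 10.8, 0.472 (3 reads), 0.347 (4 reads), 7.76, 0.0917 (1 read) and 8.91 RPKM. It fell into a higher set of libraries, labelled brain, kidney and small intestine, and a lower one with at most 4 reads.

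**Figure D5:**
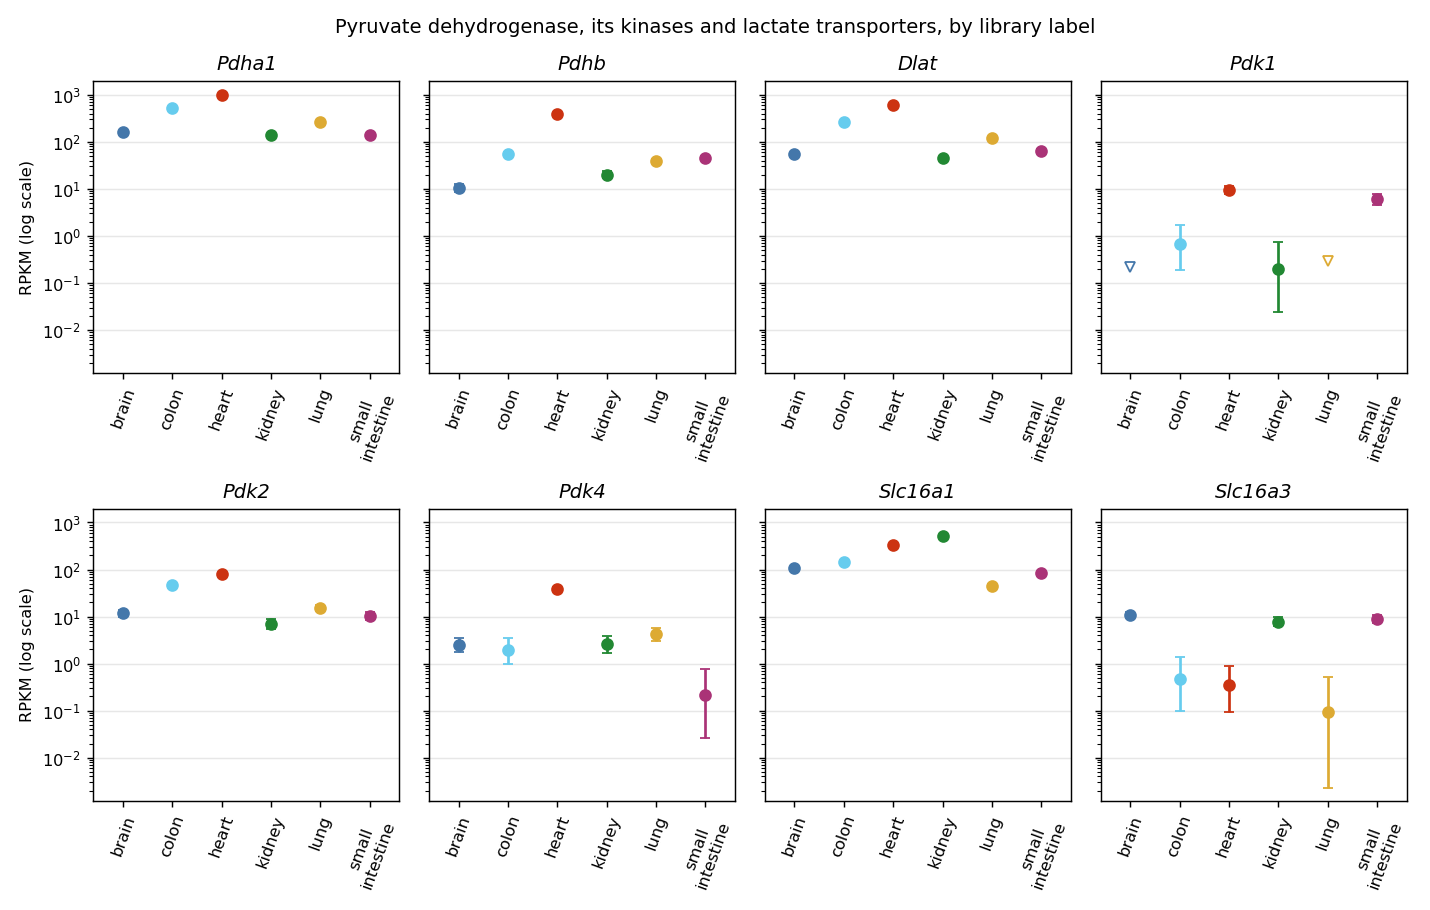
RPKM (vertical axis, log scale) of 3 pyruvate dehydrogenase genes, 3 of their kinases and 2 lactate transporters in each library by label, with bars for the 95% Poisson interval. Open triangles stand for libraries with 0 reads and are drawn at the level of 3 reads. Pdha1, Pdhb, Dlat, Pdk1, Pdk2 and Pdk4 peak in the heart-labelled library, and Slc16a1 in the kidney-labelled library at 526 RPKM.

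Each library was then set against the median of the other 5 on the log2(RPKM + 1) scale, with 4-fold as the limit. The heart-labelled library was above it for 14 of the 38 genes (36.8%), against 8.70% of all mRNAs. These were Aldoa, Eno3, Pfkm, Pgam2, Hk2, Ldhb, Pkm and Gapdh of the glycolytic steps, and Pdha1, Pdhb, Dlat, Pdk1, Pdk2 and Pdk4 around pyruvate dehydrogenase. It was below for 5 (13.2%), against 6.68%, namely Fbp1, Pck1, Pklr, Pfkfb4 and Slc16a3. The median difference of the 38 genes was 0.82 log2 units in this library and that of all mRNAs was 0.00. Its heart markers were 6 of 6 at their highest, and the skeletal muscle markers summed to 2312 RPKM there, of which Ckm, which heart also expresses, was 2225, with Myh1 at 8.18 RPKM. The heart and lung labels are those that the markers bear out.

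The colon-labelled library was above the limit for 7 genes (18.4%, all mRNAs 9.85%), namely Pck1, Fbp1, Pcx, Khk, Ldhb, Pgam2 and Pklr, and below for 3 (7.89%, all mRNAs 6.83%), namely Hk2, Pfkfb4 and Slc16a3. In the brain-labelled library 7 genes were above (18.4%, all mRNAs 10.8%), namely Fbp1, Fbp2, Khk, Pfkfb3, Pfkfb4, Pklr and Slc16a3, and 2 below (5.26%, all mRNAs 11.7%), namely Ldhb and Pfkm. Fbp1, Khk and Pklr were thus above it in both.

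In the other 3 libraries fewer of the genes were above the limit. The small-intestine-labelled library was above for Aldoa, Aldoc, Eno2, Pdk1 and Slc16a3 (13.2%, all mRNAs 16.6%) and below for Eno3, Fbp2, Hk2, Pck1, Pgam2 and Pklr (15.8%, all mRNAs 9.18%). The kidney-labelled library was above for Pklr, Slc16a1 and Slc16a3 (7.89%, all mRNAs 8.48%) and below for Ldhb, Pfkm and Pgam2 (7.89%, all mRNAs 3.46%). Pklr and Slc16a3 were called, above or below, in every library, so their calls mark no single one. The lung-labelled library was above for Pfkfb3 and Pfkfb4 alone (5.26%, all mRNAs 13.9%) and below for Eno1, Gapdh, Fbp1, Fbp2, Pklr and Slc16a3 (15.8%, all mRNAs 9.56%). Its median difference was -0.54 log2 units over the 38 genes and 0.23 over all mRNAs, so these genes lay lower in this library than mRNAs in general. Scaling by the median ratio, in place of the total of reads, moves this library by -0.48 log2 units and the others by -0.17 to 0.19, and 0 genes were then above the limit in it. The share of all mRNAs above the limit with this scaling is not given here.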

How the data were processed

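Ribosome-protected fragments of 25 to 35 nt had been sequenced from 6 tissues, 1 library each. For each library the authors deposited 1 RPKM value per mRNA. According to the study's methods, written for its macrophage libraries and taken to hold here, adapters were trimmed with Cutadapt, reads under 15 nt were dropped, and the rest aligned by STAR to the longest CDS of each gene (GRCm39, Ensembl release 107), without multi-mapped reads or reads with over 2 mismatches. Tool versions are not given in the sources used here.

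RPKM times CDS length gave whole reads for every value (largest distance 1.1e-08 reads), hence 4504853 to 10635031 reads per library. Ratios carry exact Clopper-Pearson intervals and levels exact Poisson intervals, both 95%, for counting error only, since PCR copies are not independent molecules. A gene without reads is set against 3 reads. With 1 library per tissue no test was made. Shared windows of 29 nt were counted over 21767 representative mRNAs of GENCODE M39 (GRCm39), in which the 40 genes had the CDS length of the tables. Coordinates come from this annotation. All 40 genes are named by step. Among 32 other genes of the pathway, those that led a step or passed 4-fold may be named, and 1 of these is not reported here.

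The 40 genes, the lists and the markers were chosen with earlier results of these data known. Alternatives concerned the length, scaling, filter, pseudocount and fold limits. Window lengths of 25 and 35 nt, leaving out genes with over 20% shared windows, and using heart and lung alone were added after seeing the data. Whole-read recovery and the calls were tested on simulated data. The software was matplotlib 3.10.9, pandas 2.3.3, scipy 1.17.1 and numpy 2.4.6 under Python 3.11.15.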

Additional observations from a re-analysis of the deposited data

How the results depend on the processing

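With 1 library per tissue, no error between animals is known, and the markers disagree with 4 labels. No paired analysis was possible because there is 1 library per tissue. No ratio of the highest to the next isoenzyme of the list turned when reads were not divided by length, counted over unique windows or thinned. These settings could turn few pairs. The isoenzymes of a step have similar CDS lengths, with the widest gap between Aldoa (1254 bases) and Aldoc (1089 bases). Leaving out the length could thus turn only a narrow lead. Thinning draws from the same reads, so mainly the 2 enolase pairs whose counting interval included 1 were open to it. With unique windows, only enolase in the heart-labelled library was open to such a turn. The highest isoenzyme changed only when isoenzymes outside the list were added, which among the genes given here put Hkdc1, Bpgm and Eno4 first in 1 library each, Eno4 only without correction of Eno1 for shared windows. The number of genes at least 8-fold apart ran from 19 to 25 as each library was left out. The share of all mRNAs for these counts is not given here. With heart and lung alone the number was 11 of 33, against 14.8% of 11647 mRNAs. At 2-fold in place of 4-fold, the genes above the median of the other libraries numbered 14 (labelled brain, 36.8%, all mRNAs 22.6%), 13 (colon, 34.2%, all mRNAs 23.2%), 9 (kidney, 23.7%, all mRNAs 19.3%) and 4 (lung, 10.5%, all mRNAs 31.5%). Those below it numbered 8 (brain, 21.1%, all mRNAs 26.1%), 9 (heart, 23.7%, all mRNAs 20.1%), 10 (kidney, 26.3%, all mRNAs 17.6%), 13 (lung, 34.2%, all mRNAs 19.8%) and 11 (small intestine, 28.9%, all mRNAs 22.6%). A pseudocount of 0.1 RPKM gave 4 genes below it in the library labelled brain, and a mean of at least 5 RPKM gave 3 above it in that labelled small intestine. Scaling by the median ratio left 0 genes above it in the library labelled lung, 0 genes highest there and 5 highest in that labelled small intestine. The shares of all mRNAs for these counts are not given here, so the counts alone do not set the genes apart from other mRNAs. The share of all mRNAs at least 8-fold apart was 69.9% with that pseudocount, 56.9% with that mean and 53.4% with that scaling. The scaling moved the highest library of Pgam1 from colon to small intestine, as did leaving out Kri1. It also moved that of Pfkfb3 from lung to brain and that of Slc16a3 from brain to small intestine. The other 182 counts of this kind moved by at most 1.5 times. Windows of 25 and 35 nt gave 88.9% and 85.7% shared for Eno1, 85.9% and 81.9% for Gapdh, 31.2% and 17.6% for Aldoa, and 68.6% and 67.2% for Pfkfb2. The cause of these shifts was not tested.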

Other observations

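Beyond the 40 genes, 29 of 32 further genes of the pathway were listed, and 18 of the 25 with a mean of at least 1 RPKM (72.0%) were at least 8-fold apart between libraries, against 54.9% of all mRNAs. In the library labelled colon 9 of the 25 (36.0%, all mRNAs 9.85%) were above 4-fold of the median of the others, among them Slc37a4, the transporter that brings glucose phosphate to its phosphatase, with 189 RPKM against 0.192 to 20.3 elsewhere, and Ldhd, a dehydrogenase of D-lactate, with 145.5 RPKM against 2.09 to 27.7. In the library labelled heart 5 (20.0%, all mRNAs 8.70%) were above it. These were Dld and Pdpr of the pyruvate dehydrogenase system, the pyruvate carrier Mpc1, Pgm1 of glycogen metabolism and Tigar. Tigar is a phosphatase that acts on the fructose bisphosphate whose level the PFKFB enzymes set.

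Pdhx, the protein that binds the last enzyme of the complex to its core, had 68.5 RPKM in the library labelled heart, 33.1 in that labelled lung and 0.0626 RPKM (1 read) in that labelled brain, where Dlat had 54.6. Pdp1, the phosphatase that switches the complex on, and Slc16a7, a further monocarboxylate transporter, also had 1 read each in that library, against 32.4 RPKM of Pdp1 in that labelled small intestine and 93.3 RPKM of Slc16a7 in that labelled colon. Pdhx was chosen for mention after its values were seen.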
